A study of Homo sapiens with 23 samples.

Results

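The subject is a panel of 39 neuronal genes among the 61217 genes listed in each of the authors' deposited tables, chosen by name as genes that mark neurons: cytoskeletal proteins, synaptic and granule proteins, adhesion molecules and neuronal RNA-binding proteins. They were followed in the human cervical cancer lines C-33A and CaSki, both established, of which C-33A is labelled HPV-negative squamous cell carcinoma. Cells of each line were given 100 nM of a mimic, a synthetic double-stranded RNA that raises the level of 1 microRNA, which was miR-124-3p, or miR-23b-3p, or miR-218-5p, or they were given the negative control named n#1. The study comprised 23 libraries of poly(A) RNA in 8 groups of 3, with the exception of C-33A with miR-124-3p, which had 2. Each of the 6 comparisons set 1 mimic against the negative control of the same line, so the 3 mimics of a line share their control libraries, while the lines share none. Library titles carry a replicate code that repeats across the groups, and C-33A with miR-124-3p lacks 1 of the codes. The titles do not say what the code stands for. No label ties the libraries of a group to separate cultures, so the p-values measure a spread between libraries that may be technical.

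Neurons are recognised by a set of proteins that build axons and dendrites, release transmitter and hold synapses together. In most other cells many of these genes are kept silent by REST, a repressor that binds a motif in their promoters and recruits histone-modifying corepressors. miR-124 is abundant in neurons and is known for targeting CTDSP1, a phosphatase that serves REST, and PTBP1, a splicing repressor that is replaced by PTBP2 as neurons mature.

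A microRNA recognises messages mainly through its seed, bases 2 to 8 of the mature strand, which pairs with the reverse complement in the 3' UTR. The mature sequences in RefSeq (GRCh38.p14) of the mimics that could be matched are shown with the seed in capitals, because the panel was searched for them. miR-23b-3p comes from MIR23B (chr9:95085265-95085287, plus strand), and miR-218-5p from MIR218-1 (chr4:20528299-20528319, plus strand) and MIR218-2 (chr5:168768211-168768231, minus strand).
miR-23b-3p: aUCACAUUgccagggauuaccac
miR-218-5p: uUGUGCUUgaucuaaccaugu
The corresponding matches are AATGTGA and AAGCACA. The sites shown next lie on the plus strand in the annotated 3' UTRs of panel genes measured in C-33A (GRCh38, GENCODE release 29), with the match in capitals. For miR-23b-3p they are in ENO2 (chr12:6923058-6923064), CHGB (chr20:5925222-5925228), GAP43 (chr3:115721333-115721339) and NEFH (chr22:29490948-29490954). For miR-218-5p they are in INA (chr10:103289531-103289537), UCHL1 (chr4:41268228-41268234) and SYT11 (chr1:155882536-155882542).
ENO2: aactagaAATGTGAatgagga
CHGB: tattgaaAATGTGAattgcat
GAP43: ccttttcAATGTGAtggaatg
NEFH: gtagctgAATGTGAtacatgc
INA: actttagAAGCACAgtaaata
UCHL1: ggcacttAAGCACAagcagag
SYT11: ctaactgAAGCACAgagaata

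The panel was not silent in these lines, which shared some of its genes and differed in others. A gene is called measured here when its average log2 CPM in the authors' deposited table, the log2 of counts scaled to library size and averaged over that comparison, was 0 or more. By that rule 20 of the 39 genes were measured in the authors' deposited tables of C-33A, and 18 or 19 in those of CaSki. Over all 61217 listed genes, 15222 to 15466 were measured in the C-33A comparisons and 15332 to 15486 in those of CaSki. Of these, 12902 to 12970 were measured in both lines for a given mimic, against 13 or 14 of the panel. Over both lines, 13 genes were measured in both lines, 7 in C-33A only (CHGB, DPYSL5, GAP43, RUNDC3A, SCG2, SYN1 and SYT11), 5 in CaSki only (L1CAM, NEFL, NEFM, SNAP25 and SYT1) and 14 in neither. SCG2 sits on the limit in CaSki, where the authors' deposited tables give an average log2 CPM between -0.05 and 0.07. The 14 unmeasured genes were CELF3, CHGA, CPLX1, CPLX2, DCX, DPYSL3, ELAVL3, ELAVL4, MAPT, NCAM1, NRXN2, SCG5, STMN2 and STMN4. The lowest level a listed gene had was between -3.64 and -3.60 in the authors' deposited tables of C-33A and between -4.13 and -4.00 in those of CaSki, the value of genes listed at 0. CHGA and NEFM were listed at 0 in all C-33A tables, and ELAVL4 and GAP43 in all CaSki tables. The 0 of CHGA is shared with a run of adjacent genes of other functions, described below.

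**Figure D1:**
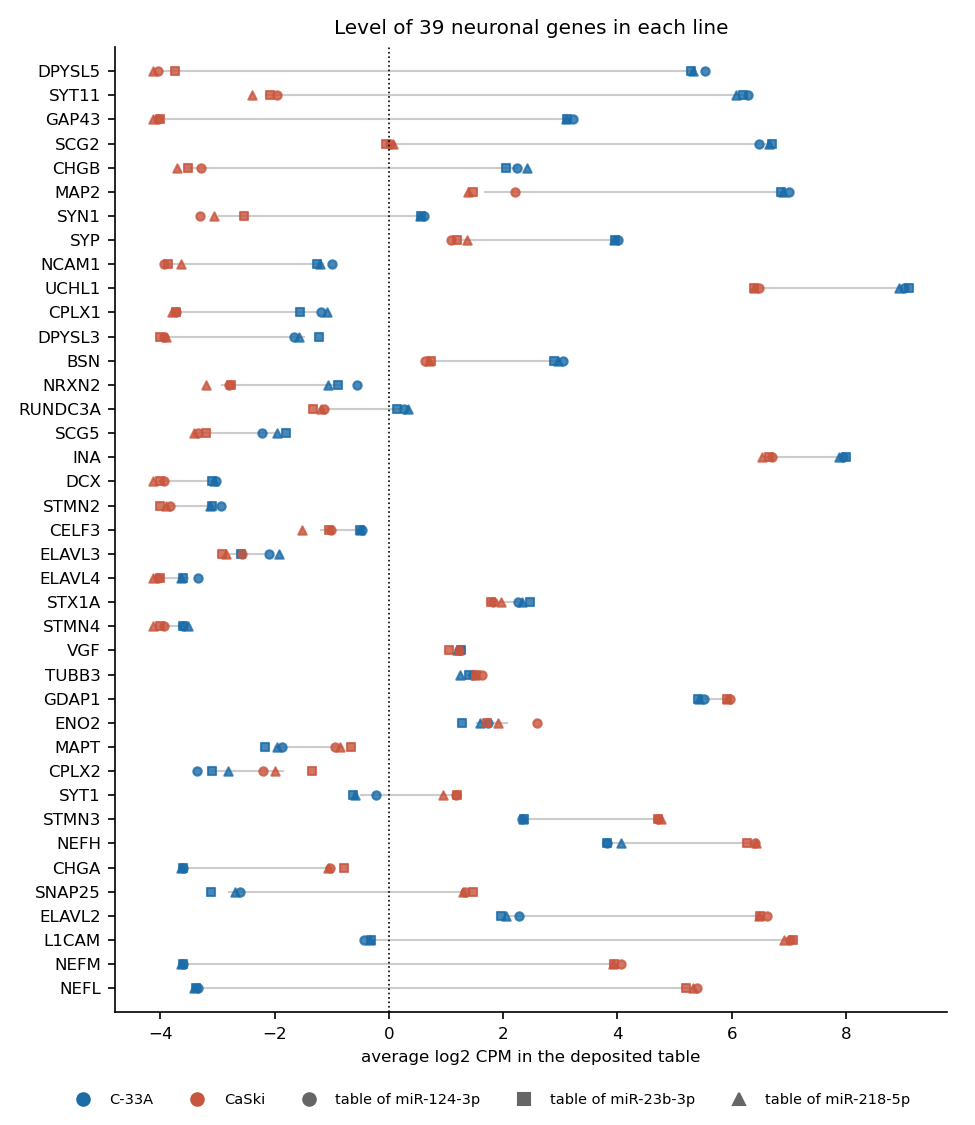
Average log2 CPM (x axis) of each of the 39 genes (y axis, ordered by the difference between lines) in the authors' deposited tables, with C-33A in blue, CaSki in red, marker shape for the table, and the dotted line at the limit of 0 for a measured gene. ENO2 and MAP2 in CaSki lie higher in the miR-124-3p table than in the other 2, and 14 genes lay over 2 log2 units higher in C-33A and 8 in CaSki, counting genes measured in neither line.

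The levels of the lines come from tables normalised separately, so they are set side by side without a test. In bulk RNA of this kind, the share of cells that express a gene and its RNA per cell cannot be told apart. The average log2 CPM in the authors' deposited tables, taken over the 3 tables of a line, was more than 2 units higher in C-33A for 14 genes and in CaSki for 8. The 14 include CPLX1, DPYSL3, NCAM1 and NRXN2, and the 8 include CHGA, none of which was measured in either line. The lowest listed level is also lower in CaSki, as given above. The CaSki values of CHGA are described below. How many of all listed genes lie as far apart was not counted. The C-33A side held DPYSL5, which encodes a collapsin response mediator of growing axons, with levels of 5.28 to 5.53 in the authors' deposited tables of C-33A and -4.13 to -3.75 in those of CaSki. SYT11, a synaptotagmin of vesicle traffic, lay at 6.08 to 6.28 in the authors' deposited C-33A tables and at -2.40 to -1.96 in the CaSki tables. MAP2, the microtubule-associated protein of dendrites, lay at 6.86 to 7.01 in the authors' deposited C-33A tables and at 1.38 to 2.21 in the CaSki tables. SCG2, a granin of dense-core vesicles, lay at 6.48 to 6.70 in the authors' deposited C-33A tables. These 4 genes were picked from the 14, a choice made on the gap itself, so the distance between their ranges is no separate result. Each range spans comparisons that share controls, so it holds little independent spread.

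The CaSki side held the neurofilaments, the intermediate filaments of axons. NEFL lay at 5.19 to 5.39 in the authors' deposited CaSki tables and at -3.41 to -3.34 in the C-33A tables, near the lowest listed level. NEFM was at 3.92 to 4.06 in the authors' deposited CaSki tables, and NEFH at 6.27 to 6.43 there and 3.82 to 4.06 in the C-33A tables. L1CAM, an adhesion molecule of growing axons, lay at 6.91 to 7.07 in the authors' deposited CaSki tables and at -0.43 to -0.31 in the C-33A tables. ELAVL2, a neuronal RNA-binding protein, was at 6.47 to 6.62 in the authors' deposited CaSki tables and 1.97 to 2.28 in the C-33A tables, and SNAP25, a SNARE of synaptic vesicle fusion, was at 1.29 to 1.47 and -3.11 to -2.61 in the same order. The fourth filament gene, INA (alpha-internexin), was high in both lines, with a mean over the authors' deposited tables of 7.95 in C-33A and 6.62 in CaSki.

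Per kilobase of the longest protein-coding transcript, computed from the authors' deposited tables, the highest levels in C-33A were those of UCHL1, a ubiquitin hydrolase abundant in neurons (8.79 on the log2 scale), INA (6.25) and SCG2 (5.25). In CaSki the order on the same scale, from the authors' deposited tables, was UCHL1 (6.19), INA (4.93), L1CAM (4.64), ELAVL2 (4.60) and NEFH (4.45), of which the last 3 lay within 0.2 of one another.

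Markers of other cell types were read from the same tables. Of 10 markers of squamous and simple epithelium, CaSki had 10 measured and C-33A had 2 (KRT8 and KRT18), with a log2 of their summed CPM of 12.89 to 12.92 in the authors' deposited CaSki tables and of 2.36 to 2.44 in the C-33A tables. The squamous keratin KRT5 was at -1.68 and the squamous regulator TP63 at -3.24 in the authors' deposited miR-124-3p table of C-33A, so the squamous part of the C-33A label was not visible in these markers. No astrocyte or oligodendrocyte marker of 11 was measured in C-33A, and 1 (MBP) was in CaSki. Of 8 neuroendocrine markers, 4 of them in the panel, 3 (CHGB, SYP and SCG3) were measured in C-33A and 1 (SYP) in CaSki, in the authors' deposited tables. CHGA, among the unmeasured markers, lies in the run of genes listed at 0 in C-33A that is described below. Of 6 fibroblast, 5 leukocyte and 5 endothelial markers, 2 (COL1A2 and COL3A1), 1 (PTPRC) and 0 were measured in C-33A and 1 (COL1A1), 0 and 1 (CDH5) in CaSki.

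Few panel genes passed the test for a change. A gene is said to have risen or fallen when its FDR in the authors' deposited table, the Benjamini-Hochberg adjusted p of edgeR's F test over all 61217 genes, was under 0.05. With miR-124-3p, DPYSL5 rose in C-33A and ENO2 rose in CaSki, and no panel gene fell. The authors' deposited miR-124-3p tables called 0.031% of all genes risen and 0.131% fallen in C-33A, and 0.103% risen and 0.203% fallen in CaSki. With miR-23b-3p and miR-218-5p no panel gene was called in either line. The share of all genes called in the authors' deposited tables was 0.0474% for miR-23b-3p and 0.0751% for miR-218-5p in C-33A, and 0.0245% for miR-218-5p in CaSki. For miR-23b-3p in CaSki it was 1.41% risen and 0.995% fallen.

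At an unadjusted p under 0.05 in the authors' deposited edgeR tables, the C-33A comparisons held 4 of 20 measured panel genes for miR-124-3p (2 higher, 2 lower), 0 of 20 for miR-23b-3p and 2 of 20 for miR-218-5p (both lower). The same share over all measured genes of those authors' deposited tables was 9.57%, 4.23% and 5.05%. In CaSki the authors' deposited tables held 5 of 19 for miR-124-3p (all higher), 3 of 18 for miR-23b-3p (2 higher, 1 lower) and 2 of 19 for miR-218-5p (both higher). Over all measured genes of those authors' deposited tables the share was 14.7%, 29.7% and 6.85%. Under miR-23b-3p in CaSki the panel's share was below that of the table as a whole.

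The panel's median log2 fold change over measured genes, from the authors' deposited tables, was -0.03, 0.07 and -0.03 in C-33A with miR-124-3p, with miR-23b-3p and with miR-218-5p, and 0.20, 0.03 and 0.06 in CaSki in the same order. These medians are descriptions, without a test. The median of all measured genes in the authors' deposited tables lay within 0.04 of 0 in every comparison. In CaSki with miR-124-3p 13 of 19 measured panel genes (68.4%) had a positive log2 fold change in the authors' deposited table, against 48% of all measured genes. The other CaSki mimics, which share its controls, had 11 of 18 (61.1%) against 50.1% with miR-23b-3p and 14 of 19 (73.7%) against 51.6% with miR-218-5p in the authors' deposited tables. In C-33A it was 9 of 20 (45%) against 49.2% with miR-124-3p, 11 of 20 (55%) against 52.4% with miR-23b-3p and 9 of 20 (45%) against 41.7% with miR-218-5p.

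**Figure D2:**
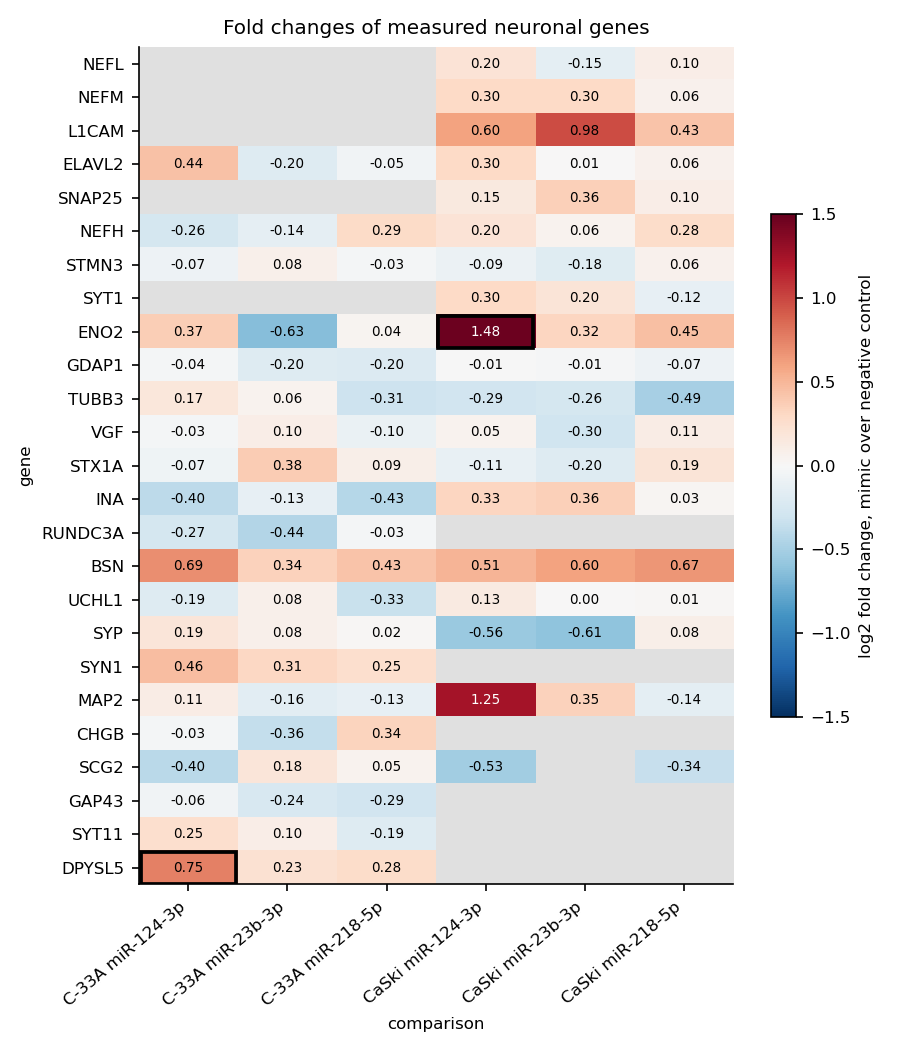
Log2 fold change of each mimic over the negative control (colour and number) for panel genes (rows) in the 6 comparisons (columns), from the authors' deposited tables; grey marks a gene under an average log2 CPM of 0, and a black frame an FDR under 0.05. The frames are on DPYSL5 in C-33A and ENO2 in CaSki, both with miR-124-3p, and BSN is positive in all 6 columns.

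ENO2 (chr12:6913745-6923698, plus strand) encodes the gamma enolase used as a marker of neurons and neuroendocrine cells. It rose in CaSki with miR-124-3p by 1.48 ± 0.287 (log2 fold change ± SE recovered from p) in the authors' deposited table, with an FDR of 0.000638 by edgeR. Its log2 fold changes in CaSki with miR-23b-3p and with miR-218-5p were 0.32 ± 0.257 and 0.45 ± 0.248 in the authors' deposited tables, neither called. In C-33A they were 0.37 ± 0.335 with miR-124-3p, -0.63 ± 0.344 with miR-23b-3p and 0.04 ± 0.29 with miR-218-5p in the authors' deposited tables, none called. ENO2 overlaps LRRC23 on the same strand, where reads can be split between the genes, and LRRC23 had a log2 fold change of 0.23 in the authors' deposited CaSki miR-124-3p table (p = 0.449, edgeR). Against the mean of the other 2 mimics of CaSki, which have the same controls, ENO2 was 1.09 higher with miR-124-3p.

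MAP2 (chr2:209424058-209734118, plus strand) had the next lowest p in CaSki with miR-124-3p, at 1.25 ± 0.33, and missed the threshold with an FDR of 0.0504 in the authors' deposited edgeR table. In C-33A, where it is abundant, MAP2 had log2 fold changes of 0.11 ± 0.169, -0.16 ± 0.167 and -0.13 ± 0.162 with miR-124-3p, with miR-23b-3p and with miR-218-5p in the authors' deposited tables. The other CaSki values were 0.35 ± 0.298 with miR-23b-3p and -0.14 ± 0.287 with miR-218-5p in the authors' deposited tables.

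DPYSL5 (chr2:26847747-26950351, plus strand) rose in C-33A with miR-124-3p by 0.75 ± 0.183 in the authors' deposited table (FDR = 0.0298, edgeR). With miR-23b-3p and miR-218-5p it was 0.23 ± 0.181 and 0.28 ± 0.171 in the authors' deposited tables, not called. Correction of the fold changes for transcript length and GC ended the DPYSL5 call, with a value of 0.54 and an adjusted p of 0.181. The C-33A groups behind it are 2 libraries against 3. The F test's second degrees of freedom, worked back from the authors' deposited F and p, had a median of 183651 in this table and 31.5 in the CaSki miR-124-3p table, so the C-33A p-values rest on a spread pooled over genes rather than on each gene's own libraries.

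No filament or adhesion gene passed the threshold. INA (chr10:103277163-103290351, plus strand) was at -0.40 ± 0.169 and -0.43 ± 0.162 in C-33A with miR-124-3p and miR-218-5p in the authors' deposited tables (p = 0.0193 and 0.00745, FDR = 1, edgeR). In CaSki INA was at 0.33 ± 0.139 with miR-124-3p (FDR = 0.769) and 0.36 ± 0.132 with miR-23b-3p (FDR = 0.15) in the authors' deposited edgeR tables. L1CAM (chrX:153861514-153886174, minus strand) was at 0.60 ± 0.254, 0.98 ± 0.352 and 0.43 ± 0.253 in CaSki with miR-124-3p, with miR-23b-3p and with miR-218-5p in the authors' deposited edgeR tables (FDR = 0.77, 0.135 and 1). Against the mean of the other 2 CaSki mimics the L1CAM values were -0.10, 0.47 and -0.36, and those of INA 0.13, 0.18 and -0.31, in the same order of mimics. NEFH had a log2 fold change of 0.28 ± 0.125 in CaSki with miR-218-5p in the authors' deposited edgeR table (p = 0.0265, FDR = 1). NEFM was at 0.30, 0.30 and 0.06 and NEFL at 0.20, -0.15 and 0.10 with miR-124-3p, with miR-23b-3p and with miR-218-5p in the authors' deposited CaSki tables, none called. TUBB3, the beta-tubulin of neurons, was at -0.49 ± 0.253 in CaSki with miR-218-5p in the authors' deposited edgeR table (p = 0.0512).

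BSN (chr3:49554489-49671545, plus strand) encodes bassoon, a scaffold of the presynaptic active zone. Its log2 fold changes in the authors' deposited tables were positive in all 6 comparisons, at 0.69, 0.34 and 0.43 in C-33A and 0.51, 0.60 and 0.67 in CaSki with miR-124-3p, with miR-23b-3p and with miR-218-5p, with SEs of 0.227 to 0.313. None was called, and the lowest p in the authors' deposited edgeR tables was 0.00725 (FDR = 0.885). Its transcript is the longest of the panel (15955 nt), and correction for transcript length and GC left values of 0.38, 0.20 and 0.35 in C-33A and 0.33, 0.33 and 0.57 in CaSki. The 3 values of a line share controls, and against the mean of the other 2 mimics BSN was between -0.22 and 0.31 in C-33A and between -0.12 and 0.11 in CaSki.

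Among vesicle proteins, SYP (synaptophysin) was at -0.56 ± 0.288 and -0.61 ± 0.278 in CaSki with miR-124-3p and miR-23b-3p in the authors' deposited edgeR tables (p = 0.0516 and 0.029), and at 0.08 with miR-218-5p. SNAP25 was at 0.15, 0.36 and 0.10 and SYT1, a calcium sensor of release, at 0.30, 0.20 and -0.12 with miR-124-3p, with miR-23b-3p and with miR-218-5p in the authors' deposited CaSki tables, none called. STX1A, the SNARE partner of SNAP25, lay between -0.20 and 0.38 over the 6 authors' deposited tables. SCG2 was at -0.40 ± 0.176 in C-33A with miR-124-3p in the authors' deposited edgeR table (p = 0.0221, FDR = 1) and CHGB, another granin, at -0.03 there. ELAVL2 was at 0.30 ± 0.126 in CaSki with miR-124-3p in the authors' deposited edgeR table (p = 0.0159, FDR = 0.724). GDAP1, a protein of the mitochondrial outer membrane, STMN3, a tubulin-binding stathmin, and VGF, a neuropeptide precursor, stayed between -0.30 and 0.11 in the 6 authors' deposited tables. RUNDC3A, a protein of neurons with a RUN domain, was at -0.27, -0.44 and -0.03 and GAP43, a growth cone protein, at -0.06, -0.24 and -0.29 with miR-124-3p, with miR-23b-3p and with miR-218-5p in the authors' deposited C-33A tables, none called. UCHL1 was at -0.33 ± 0.162 in C-33A with miR-218-5p in the authors' deposited edgeR table (p = 0.0425, FDR = 1), and at most 0.13 in the 3 CaSki tables.

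**Figure D3:**
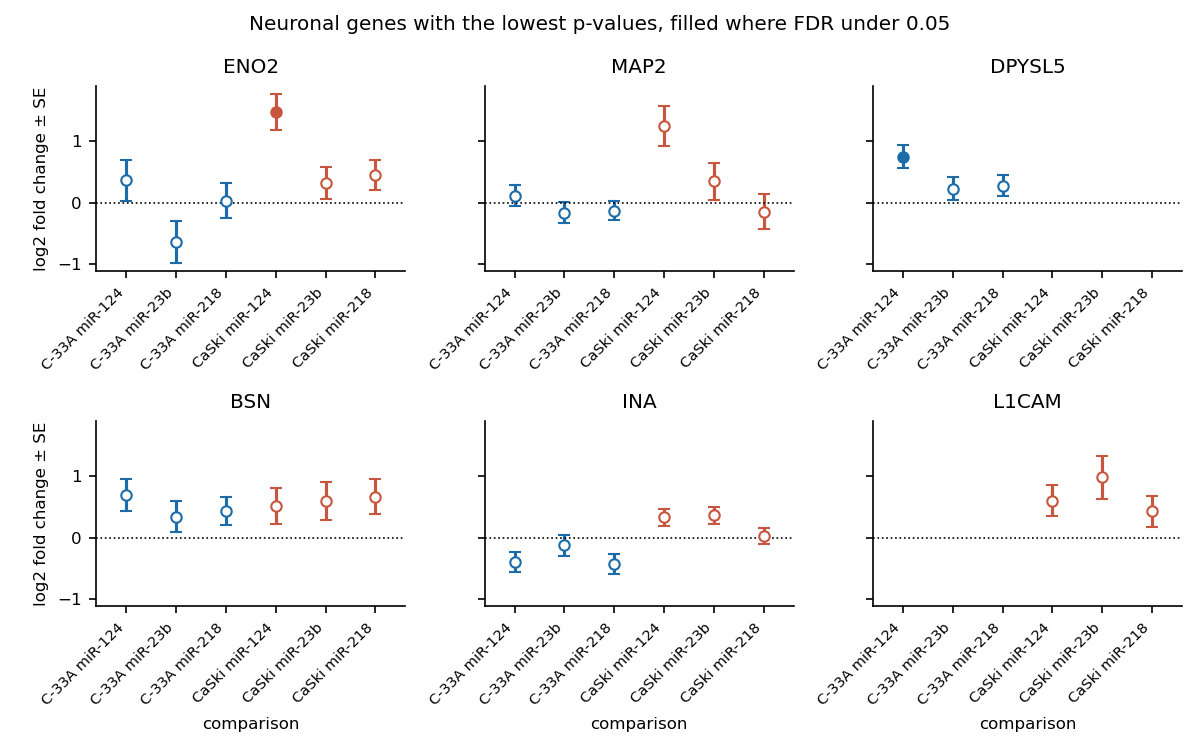
Log2 fold change over the negative control with its SE (y axis) for ENO2, MAP2, DPYSL5, BSN, INA and L1CAM in the 6 comparisons (x axis) where the gene was measured, from the authors' deposited tables, with C-33A in blue, CaSki in red and filled points for an FDR under 0.05. ENO2 and MAP2 stand above 1 in CaSki with miR-124-3p, and INA is below 0 in the 3 C-33A comparisons.

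The response to each mimic was compared between the lines by the difference of the fold changes in the authors' deposited tables. Both lines measured 14 panel genes for miR-124-3p, 13 for miR-23b-3p and 14 for miR-218-5p. None of them differed at an adjusted p under 0.05, where 0%, 1.7% and 0% of all genes tested did in the same order. At an unadjusted p under 0.05 the panel held 4, 3 and 1 such genes. With miR-124-3p the difference of CaSki minus C-33A was 0.72 ± 0.219 for INA, 1.14 ± 0.371 for MAP2, 1.11 ± 0.441 for ENO2 and -0.75 ± 0.364 for SYP, so the ENO2 rise called in CaSki and not in C-33A was not shown to differ between them (adjusted p = 0.9998, two-sided normal test on the edgeR values). The same difference for INA was 0.49 with miR-23b-3p and 0.46 with miR-218-5p. Fold changes had the same sign in both lines for 8 of 14 genes with miR-124-3p, 3 of 13 with miR-23b-3p and 8 of 14 with miR-218-5p, against 65.1%, 50.1% and 61.9% of all genes tested.

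The measured panel genes with a seed match had values below 0 in C-33A and, taken over both mimics searched, on both sides of 0 in CaSki. No match to miR-124-3p was searched, because its mature sequence was not available. Of the 20 panel genes measured in C-33A, 5 carried AATGTGA in the 3' UTR (ENO2, CHGB, GAP43, NEFH and GDAP1), a share of 25% against 21.9% of all measured genes. Their log2 fold changes with miR-23b-3p in the authors' deposited table were all below 0, with a median of -0.24 against 0.08 for panel genes without a match. Over all measured genes the medians were -0.08 with and 0.05 without a match, and 67.3% of those with a match were lower against 38.3%. With miR-218-5p in C-33A the 3 measured genes with AAGCACA were SYT11, UCHL1 and INA, at -0.19, -0.33 and -0.43 in the authors' deposited table, against a median of 0.02 for the others. All measured genes had medians of -0.10 with and -0.03 without that match, and 69.1% against 57.2% were lower. None of these genes was called.

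In CaSki with miR-23b-3p, 2 of 5 measured panel genes with a match were below 0 in the authors' deposited table, with a median of 0.06 against 0.01 without, and all measured genes had medians of 0.06 and -0.03, with 42.3% lower among those with a match against 53.9%. With miR-218-5p neither of the 2 genes (UCHL1 and INA) was below 0 in the authors' deposited table, where 51.1% of all measured genes with a match were lower against 46.2%. ENO2, NEFH and GDAP1 carried a match for miR-23b-3p and were measured in both lines. With that mimic they were at -0.63, -0.14 and -0.20 in C-33A and at 0.32, 0.06 and -0.01 in CaSki in the authors' deposited tables.

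**Figure D4:**
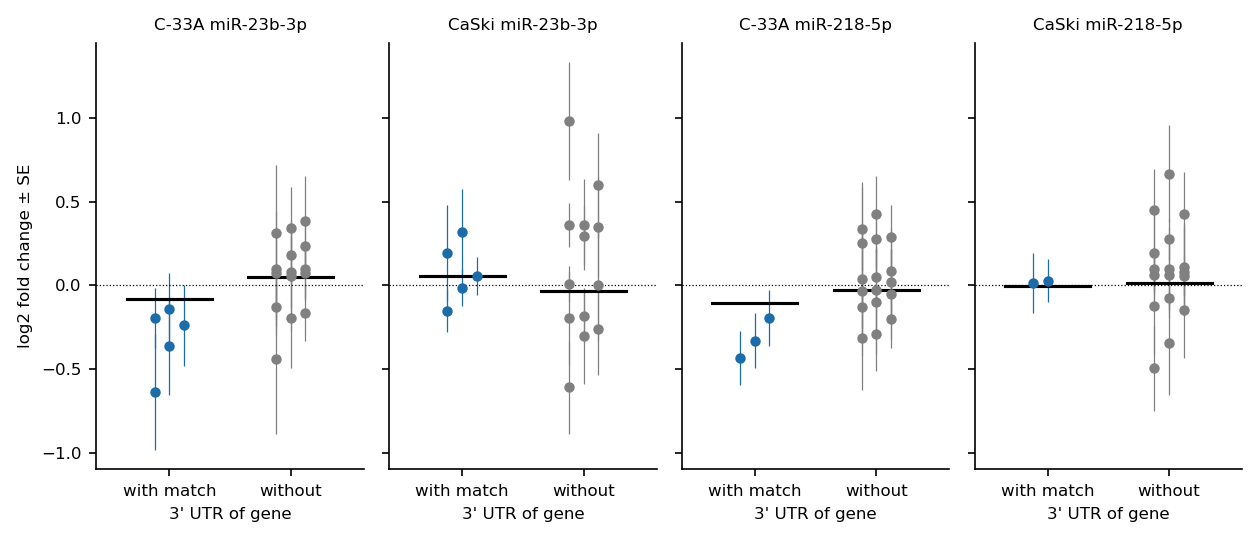
Log2 fold change with its SE (y axis) of measured panel genes with (blue) and without (grey) a match to the seed in the 3' UTR (x axis), for miR-23b-3p and miR-218-5p in each line; the black bar is the median of all measured genes of that class. All 5 and all 3 genes with a match lie below 0 in C-33A, which is not so in CaSki.

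Genes that act on the neuronal programme were called with miR-124-3p in both lines. CTDSP1, the phosphatase named above, fell with miR-124-3p by 0.93 ± 0.197 in C-33A and 1.37 ± 0.215 in CaSki on the log2 scale in the authors' deposited edgeR tables (FDR = 0.00321 and 1.75e-06). Its relative CTDSPL fell by 0.56 ± 0.145 in CaSki in the authors' deposited edgeR table (FDR = 0.0438) and was at -0.43 in C-33A, not called. PTBP3, of the same family as PTBP1, fell with miR-124-3p by 0.90 ± 0.174 in C-33A and 0.63 ± 0.149 in CaSki in the authors' deposited edgeR tables (FDR = 0.000463 and 0.0151). PTBP1 itself was at -0.43 ± 0.169 and -0.39 ± 0.133 and PTBP2 at 0.66 ± 0.178 and 0.20 ± 0.168 in C-33A and CaSki in the authors' deposited edgeR tables, none called (lowest FDR = 0.104, for PTBP2 in C-33A). REST was measured in both lines, at an average log2 CPM of 7.56 in C-33A and 6.46 in CaSki in the authors' deposited miR-124-3p tables, and had log2 fold changes of 0.10 ± 0.168 and 0.28 ± 0.134 there, not called.

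By list, of 15 genes of the REST corepressor and silencing list with miR-124-3p, 0 rose and 1 fell in C-33A (14 measured), and 0 rose and 2 fell in CaSki (15 measured), in the authors' deposited tables. The gene measured in CaSki alone is EHMT2, a histone methyltransferase, at -11.88, -12.40 and -11.92 with miR-124-3p, with miR-23b-3p and with miR-218-5p in the authors' deposited CaSki tables, not called, and listed at 0 in all C-33A tables. It is among the 307 genes described below, with the neighbours of CHGA, that lay below -3 in all CaSki comparisons. Its count as measured in CaSki rests on averages to which the shared negative controls gave most, and which control libraries did so was not tested. With miR-23b-3p in CaSki the corepressor genes RCOR3 (0.57 ± 0.166) and SIN3A (0.68 ± 0.137) rose in the authors' deposited edgeR table (FDR = 0.0291 and 0.000243). Of 18 genes of neuronal splicing and chromatin switching, 10 were measured in each line, and PTBP3 was the single call, with miR-124-3p. Of 22 neurogenic and neuroendocrine transcription factors 5 were measured in C-33A and 4 in CaSki, with no call in any of the authors' deposited tables. SOX2, a factor of neural progenitors, was at 7.86 to 7.96 in the authors' deposited C-33A tables and -1.88 to -1.72 in the CaSki tables.

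The REST motif was searched in its left and right parts, TTCAGCACC and GGACAG, on both strands of the RefSeq promoters around the gene start, which 24 of the 39 genes have. The left part was in 0.403% of all 27305 promoters and in 1 panel promoter, and the right part in 20.5% and in 8. Both parts 2 bases apart were in 3 promoters of all and, in the panel, in SYN1, which encodes synapsin I, a protein of synaptic vesicles. The site is shown with both parts in capitals, because it is the one full match of the panel (GRCh38.p14, chrX:47620074-47620090, minus strand, at position -233 from the start).
SYN1: TTCAGCACCgcGGACAG
SYN1 had log2 fold changes of 0.46, 0.31 and 0.25 in C-33A with miR-124-3p, with miR-23b-3p and with miR-218-5p in the authors' deposited tables, none called. TIMP1 and ARAF overlap SYN1 on the opposite strand, and the sources used here do not say whether the counting used strand.

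CHGA, which encodes chromogranin A of dense-core granules, and MAPT, the tau protein of axons, had large values in CaSki that passed no test. CHGA (chr14:92923080-92935293, plus strand) was at -7.94, -8.51 and -7.99 with miR-124-3p, with miR-23b-3p and with miR-218-5p in the authors' deposited edgeR tables, with p of 0.263, 0.322 and 0.257 and an average log2 CPM of -1.08 to -0.79. MAPT (chr17:45894382-46028334, plus strand) was at -4.00, -3.01 and -2.71 in the same authors' deposited tables. The 3 values of each gene share the CaSki controls. Neighbouring genes of other functions had like values: CHGA is the first of 24 adjacent protein-coding genes, ending with SERPINA9, that were listed at 0 in all C-33A tables, and 16 of the 24 had an average log2 CPM above -1.5 and a log2 fold change below -3 in all of the authors' deposited CaSki tables. They include DDX24, an RNA helicase at -14.25 with miR-124-3p in the authors' deposited CaSki table, and ITPK1, an inositol phosphate kinase at -12.10. Around MAPT, KANSL1 was at -3.94, NSF at -6.87 and WNT3 at -5.86 with miR-124-3p in the authors' deposited CaSki table.

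Of the 10 nearest protein-coding neighbours of each panel gene, 6 for CHGA, 4 for MAPT, 1 for SCG5 and 0 for every other panel gene had an average log2 CPM above -1.5 and a log2 fold change below -3 in all 3 of the authors' deposited CaSki tables. Over all listed genes, 307 with an average log2 CPM above -1.5 were below -3 in all 3, none was above 3 in all 3, and none was called; in C-33A none was below -3 in all 3. Fold changes this low place most reads of the 307 genes in the negative controls, which the 3 CaSki comparisons share. Which control libraries hold them cannot be told from averages, and the part of such differences in the CHGA and MAPT values was not tested. Neither gene was measured by the limit of 0, so neither enters a count of measured genes above. CHGA is, however, among the 8 genes counted above as over 2 log2 units higher in CaSki.

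**Figure D5:**
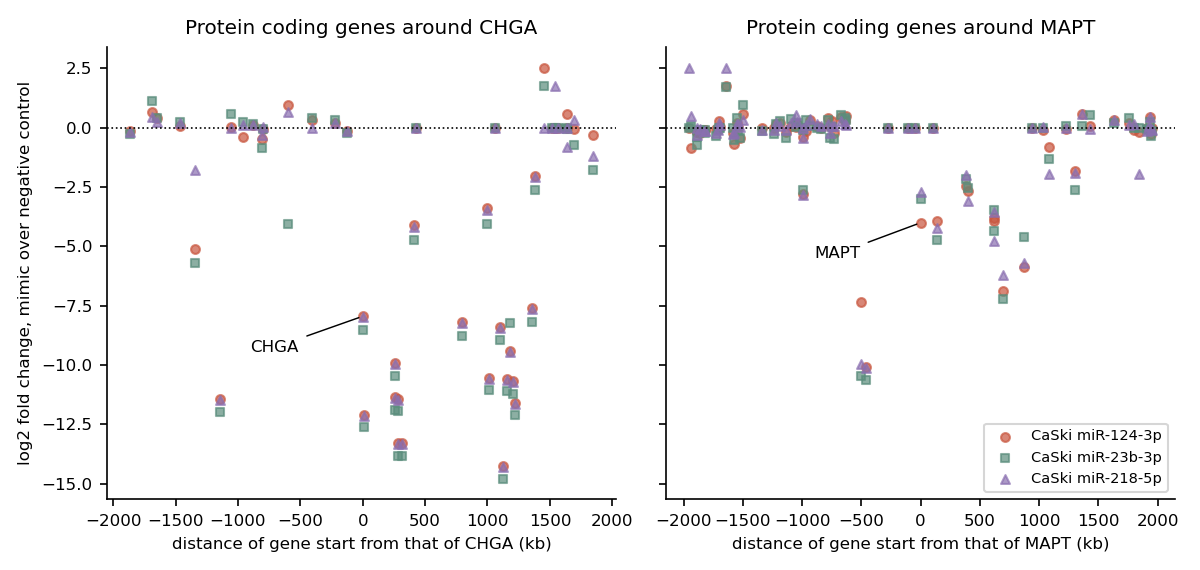
Log2 fold change over the negative control (y axis) of protein-coding genes within 2000 kb of CHGA (left) and MAPT (right) in the 3 authors' deposited CaSki tables (marker shape), by distance of the gene's start in kb (x axis); genes listed at 0 lie on the dotted line. Values of -7.94 for CHGA and -4.00 for MAPT with miR-124-3p stand among neighbours at -3 to -15.

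Of the other unmeasured values, those with an unadjusted p under 0.05 were in CaSki. SCG5, a secretory chaperone, was at -5.21 ± 2.21 in CaSki with miR-23b-3p in the authors' deposited edgeR table (p = 0.0182, FDR = 0.286). Its average log2 CPM there was -3.20. With miR-124-3p SCG5 was at -4.59 in the authors' deposited edgeR table of CaSki (p = 0.0496). With miR-218-5p SCG5 was at -4.65 in the authors' deposited CaSki table and narrowly missed the unadjusted threshold. These SCG5 values share the CaSki negative controls, whose part in them was not tested. SYT11 was at 1.65 ± 0.742 in CaSki with miR-124-3p in the authors' deposited edgeR table (p = 0.0264, FDR = 0.881) at an average log2 CPM of -1.96. DCX, a microtubule protein of migrating neurons, stayed at -3.03 or lower in every authors' deposited table, whichever mimic was given.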

How the data were processed

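Poly(A) RNA of the 23 libraries was sequenced on an Illumina platform, per the labels' protocols. The submitters' processing notes list FastQC 0.73, STAR 2.7.10b, featureCounts 2.0.3, edgeR 3.36.0 and GRCh38. The files are 6 comparison tables in which the authors deposited edgeR's output per gene without a filter on low values: the fold change and average CPM as log2 values, the F statistic (a score), the p-value and the FDR. The deposited FDR equals the Benjamini-Hochberg adjustment of the deposited p-value over all genes in all 6 tables. Values per library were not analysed here, so depth is unknown.

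From these, an SE was derived by dividing the size of each log2 fold change by the two-sided normal quantile of its p, and the lines were compared by a two-sided normal test with Benjamini-Hochberg adjustment over genes measured in both (scipy 1.17.1). In CaSki, where the F test had fewer degrees of freedom, this SE is wider than an SE taken from F. In C-33A both are nearly equal for panel genes. A check on simulated data drew its p-values from the normal distribution. It recovers the SE by construction and could not test the step on p-values from F. Positions and 3' UTRs are from GENCODE 29, and microRNAs and promoters from RefSeq. The members and lists were chosen with earlier results of these data known. All members are accounted for, with full statistics for called members and up to 6 of lowest p per comparison, while REST, CTDSP1, PTBP1, PTBP2 and called list genes are named; SOX2, the single markers named and the neighbours of CHGA and MAPT were singled out after their values were seen. Alternatives changed the FDR threshold, the floor, the centring, the length and GC trend, and the reference.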

Additional observations from a re-analysis of the deposited data

How the results depend on the processing

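No paired analysis was possible because the tables hold one value per gene and comparison, and leaving out a replicate could not be run for the same reason, so nothing here speaks to the weight of single libraries. The number of panel genes called in C-33A with miR-124-3p went from 1 to 0 at a deposited FDR under 0.01. In CaSki with miR-124-3p it went from 1 to 2 (ENO2 and MAP2) at an FDR under 0.10 and with the FDR recomputed over genes whose average log2 CPM reached 0 or 1. In CaSki with miR-23b-3p it went from 0 to 2 (L1CAM and INA) with either recomputed FDR, which covers fewer genes. MAP2 in CaSki with miR-124-3p passed after centring (1.26, adjusted p = 0.0321) and after removal of the length and GC trend (1.09, adjusted p = 0.0449), both adjusted over fewer genes. ENO2 there kept its call with the trend removed (adjusted p = 8.24e-05). Removing the trend turned the sign of values near 0: GDAP1 (0.0467) in C-33A with miR-124-3p, SYP (-0.0499) and TUBB3 (-0.0776) with miR-23b-3p, and ELAVL2 (0.17) with miR-218-5p, and in CaSki GDAP1 (0.0057) with miR-124-3p, ELAVL2 (-0.0328) with miR-23b-3p and INA (-0.0033) with miR-218-5p. Centring turned GDAP1 (0.0058) in CaSki with miR-124-3p. The cause of these turns was not tested. The sign of the panel median was not stable in 5 comparisons. With miR-124-3p in C-33A it turned from -0.03 to 0.14 at a floor of -2, 0.11 with no floor, 0.05 after the trend correction and 0.15 against the other mimics. With miR-23b-3p it turned to -0.08 (trend) and -0.06 (other mimics) in C-33A and to -0.12 (other mimics) in CaSki. With miR-218-5p it turned to 0.0081 (centred) and 0.02 (trend) in C-33A and to -0.06 (other mimics) in CaSki. With miR-124-3p in CaSki it stayed above 0 in each setting but no floor, which gave 0, and was 0.09 against the other mimics. Against the other mimics, 42 single values moved by more than their SE and 47 did not. No panel gene differed between the lines with the SE from F or at the other floors.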
